A study of Mus musculus with 12 samples.

Results

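Prohormones leave the endoplasmic reticulum as inactive precursors and are cut, trimmed and modified on the way to the mature secretory granule. The 6 genes described here encode that machinery: the prohormone convertases Pcsk1 and Pcsk2, the carboxypeptidase Cpe, the amidating enzyme Pam, the convertase chaperone Scg5 and the convertase inhibitor Pcsk1n. They were taken by name, and all 6 were present among the 12643 genes measured in the series.

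RNA came from MIN6 cells, an established beta-cell line derived from an insulinoma of a mouse. All cells were at passage 29, grown in high-glucose medium and harvested 72 h after nucleofection, which the control cells received too. One set of cultures received an siRNA against Pdx1, the homeodomain factor that drives insulin transcription in beta cells, and the other a control siRNA that the labels call NT. RNA was taken as total RNA and as IP RNA, the RNA recovered with ribosomes by translating ribosome affinity purification (TRAP), so that 4 groups had 3 libraries each. The labels name neither the tagged ribosomal protein nor the cells that carry it, and the only cells studied are of 1 tumour line. Whether replicates came from different cultures is not stated, so the spread behind each p-value is that between libraries and may be technical.

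Libraries held 29430690 to 45806807 counts over the genes. Replicates correlated at r = 0.985 to 0.998 across genes on the log scale, and no pair differed by as little as sampling noise. Ins2 was the gene with the highest level per kilobase in each group, and all 10 beta-cell markers looked for were measured. None of the 12 immune, endothelial and stromal markers was among the genes analysed here. Pdx1 fell 2.29-fold in total RNA (log2 fold change −1.20 with SE 0.10, edgeR quasi-likelihood adjusted p = 1.0e-07) and 2.42-fold in IP RNA (−1.27, SE 0.10, adjusted p = 4.3e-08). An earlier analysis of these data set NT IP replicate 3 and the 3 Pdx1 siRNA IP libraries apart from NT IP replicates 1 and 2 at genes with a close copy elsewhere. That division was taken over and is called the IP split; the labels name no such batch. Of the 6 genes, Pcsk2 was the only one with a match to another annotated transcript at 95% identity or more, over 5.55% of its length, to a gene on the opposite strand of its own locus.

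As background, PC1/3 (the product of Pcsk1) and PC2 (the product of Pcsk2) are subtilisin-like proteases that cut prohormones after pairs of basic residues. Both act on proinsulin, and PC2 is the enzyme that alpha cells use to make glucagon. Carboxypeptidase E, the product of Cpe, removes the basic residues that the cut leaves behind, and PAM turns a C-terminal glycine into an amide in a copper-dependent reaction. The protein 7B2, encoded by Scg5, escorts the PC2 precursor and is needed for its activation, whereas proSAAS, encoded by Pcsk1n, binds and inhibits PC1/3.

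The members differ in locus, size and strand (coordinates of GRCm38, which is mm10, for the GENCODE M21 transcript linked to the counted RefSeq transcript). Pcsk1 lies on chromosome 13 (75089826 to 75134861, plus strand) with a transcript of 5040 bases in 14 exons. Pcsk2 (chromosome 2, 143546156 to 143816285, plus strand) has 4723 bases in 12 exons, and 7.6% of its exon bases are shared with antisense transcripts named Pcsk2os1 and Pcsk2os2. Scg5 lies on the same chromosome (113776362 to 113829121, minus strand) with the shortest transcript, 1208 bases in 6 exons. Pcsk1n is on chromosome X (7919822 to 7924410, plus strand), with 2193 bases in 3 exons, of which 6.16% overlap Eras on the other strand. Cpe (chromosome 8, 64592542 to 64693054, minus strand) has 2117 bases in 9 exons, and Pam (chromosome 1, 97821095 to 98095632, minus strand) 4102 bases in 26 exons. Each gene was represented by 1 RefSeq transcript in the tables, so isoforms of Pam cannot be told apart. Whether strand was used in counting is not stated, so reads from the antisense overlaps of Pcsk2 and Pcsk1n cannot be told apart from those of the gene.

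The stretches before the starts of the convertase genes and of the genes for their binding proteins are shown because these are the partners compared below. They come from RefSeq (GRCm38.p6), run 5′ to 3′ on the gene's strand, and end before the start of both the RefSeq and the GENCODE transcript. Capitals mark TAAT, the core that homeodomain factors such as PDX1 recognise, and TGACGTCA, the palindromic cAMP response element, each searched on both strands. The longer homeodomain palindrome TAATTA, which holds TAAT, was searched as well.
Pcsk1, chr13:75089607-75089825, plus strand: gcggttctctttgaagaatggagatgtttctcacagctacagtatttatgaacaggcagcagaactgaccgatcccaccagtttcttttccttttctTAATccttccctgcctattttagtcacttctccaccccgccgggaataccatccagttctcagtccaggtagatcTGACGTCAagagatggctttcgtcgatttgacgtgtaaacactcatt
Pcsk2, chr2:143545883-143546132, plus strand: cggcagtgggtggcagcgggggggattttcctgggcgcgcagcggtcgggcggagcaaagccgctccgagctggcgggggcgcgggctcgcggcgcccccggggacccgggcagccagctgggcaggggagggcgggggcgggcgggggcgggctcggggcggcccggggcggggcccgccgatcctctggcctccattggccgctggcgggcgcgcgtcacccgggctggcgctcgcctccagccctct
Scg5, chr2:113829122-113829341, minus strand: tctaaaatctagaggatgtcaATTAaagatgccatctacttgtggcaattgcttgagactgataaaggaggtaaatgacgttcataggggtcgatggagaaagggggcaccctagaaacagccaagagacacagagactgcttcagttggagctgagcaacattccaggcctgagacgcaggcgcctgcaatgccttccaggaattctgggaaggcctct
Pcsk1n, chrX:7919572-7919821, plus strand: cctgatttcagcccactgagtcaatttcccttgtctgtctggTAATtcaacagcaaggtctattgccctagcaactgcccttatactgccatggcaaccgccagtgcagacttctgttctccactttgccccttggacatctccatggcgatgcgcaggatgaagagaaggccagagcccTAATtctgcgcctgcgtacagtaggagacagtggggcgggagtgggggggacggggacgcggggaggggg

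The Pcsk1 stretch held 1 TGACGTCA, whose first base lay 78 bases before the transcript start used by the RefSeq window, and 1 TAAT. TGACGTCA was found in 2.91% of 10081 windows of 250 bases, 1 for each measured gene with an entry, TAAT in 38.5% and TAATTA in 2.2%. The Pcsk1 and Scg5 stretches are shorter, at 219 and 220 bases, and their full windows held the same number of matches. Scg5 held 1 TAAT, printed as its reverse complement, and Pcsk1n held 2. Neither the Pcsk2 stretch nor the 2 Pam windows held any of these motifs, and no member held TAATTA. The stretches also differ in base composition, at 82.4% G and C for Pcsk2, 57.6% for Pcsk1n, 49.1% for Scg5 and 45.7% for Pcsk1. A match describes letters only, and binding was not measured. The RefSeq gene entry of Pcsk1, which includes predicted transcripts, begins further upstream at 75089420, so its stretch lies before the counted transcript but inside that entry. Part of the Pcsk2 stretch is covered on the other strand by a noncoding exon of Pcsk2os1. Windows were matched for 5 of the 6 members, all but Cpe.

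Compared per kilobase of transcript, Cpe was the most abundant member in each group and Pcsk1 the least. In NT total RNA Cpe stood at 4147 ± 225 CPM per kilobase (CPM, counts scaled to library size after TMM normalization; SD, n = 3), rank 7 of 12524 genes with a known length. Pcsk2 followed at 1009 ± 63.9 (rank 28) and its chaperone Scg5 at 935 ± 42.5 (rank 33). Pcsk1n stood at 331 ± 56.3 and Pam at 289 ± 20.4, and Pcsk1 at only 71.0 ± 3.36 (rank 631). In Pdx1 siRNA IP RNA the order was Cpe (9604 ± 1031), Scg5 (3046 ± 393), Pcsk2 (1667 ± 201), Pcsk1n (1249 ± 385), Pam (643 ± 81.1) and Pcsk1 (57.9 ± 5.89). The depth behind these values is large, with 6692 to 787157 counts for a member in a library.

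All 6 members rose after Pdx1 siRNA, in total RNA and in IP RNA. In total RNA the median log2 fold change of the 6 was 0.93, against −0.04 over all 12643 genes, and 6 of 6 were called higher, where 23.8% of all genes were higher and 29.2% lower. In IP RNA the median was 1.01 against −0.01, and again 6 of 6 were higher, where 29.2% of all genes were higher and 30.4% lower. Before any scaling between libraries the 6 genes together took 2.00% to 2.21% of an NT total library and 2.99% to 3.33% of a Pdx1 siRNA total library. For IP libraries the shares were 1.88% to 2.14% with NT siRNA and 2.89% to 3.23% with Pdx1 siRNA. For each member the libraries of both siRNAs did not overlap in either fraction, a separation towards higher values that 26.1% of all genes showed in total RNA and 32.3% in IP RNA. In cultures measured in bulk, more cells that express a gene and more RNA per cell cannot be told apart.

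**Figure D1:**
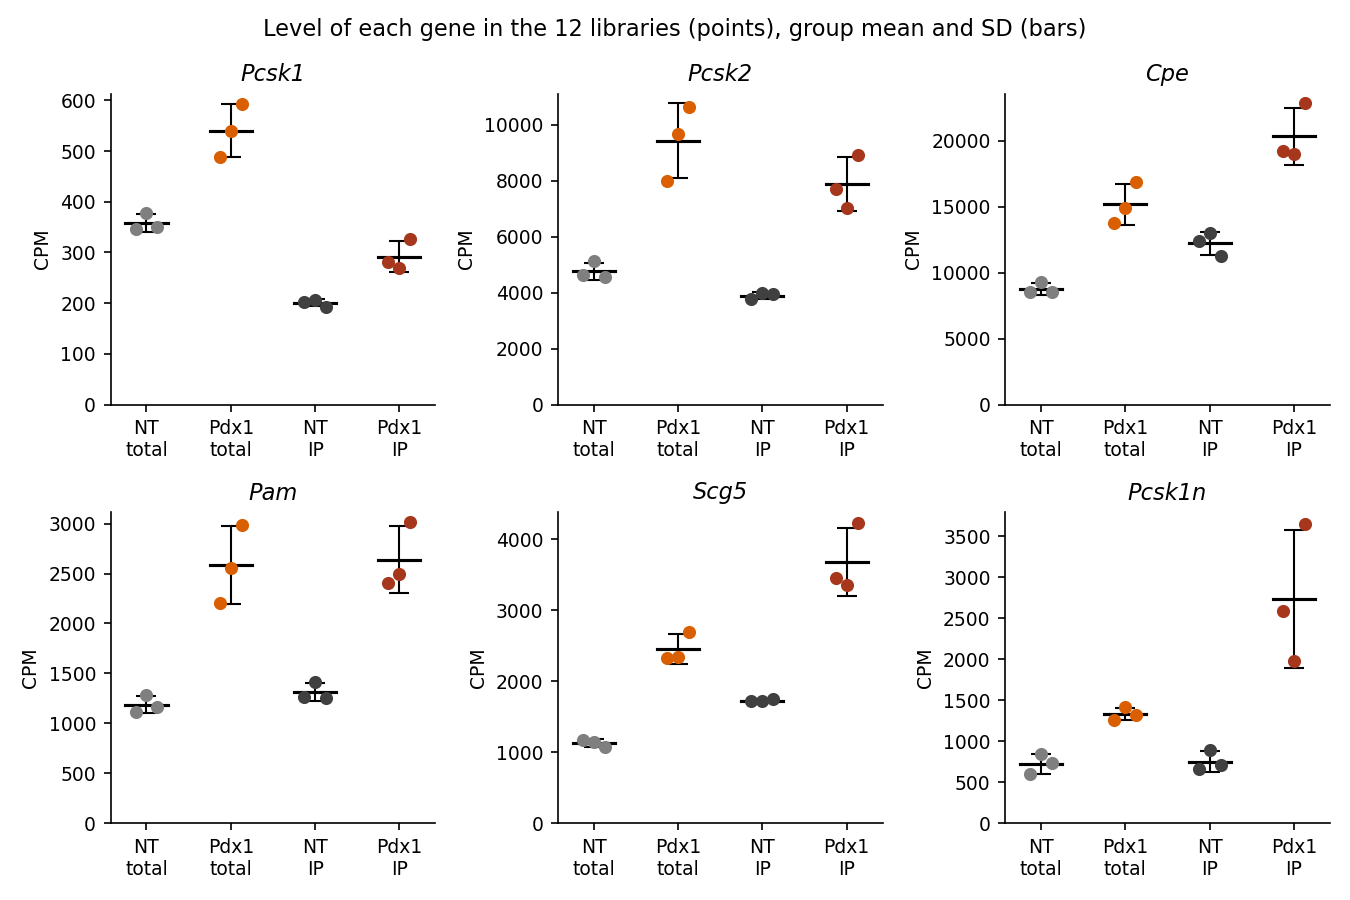
Level of each of the 6 genes in CPM (y axis, linear, from 0) in the 12 libraries by group; points are libraries, the long bar is the group mean and the whiskers are the SD of 3 libraries. Within a fraction every Pdx1 siRNA library lies above every NT library for each gene, and Pcsk1n has its widest spread in Pdx1 siRNA IP, at 1979 to 3646 CPM.

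Both convertase genes rose, Pcsk2 by 1.98-fold and Pcsk1 by 1.51-fold in total RNA. Pcsk2 stood at 4614, 5111 and 4566 CPM in the NT total libraries and at 7995, 9667 and 10621 CPM in the Pdx1 siRNA total libraries. The rise was 1.98-fold (log2 fold change 0.98 with SE 0.12, edgeR adjusted p = 6.9e-06). With ribosomes its level went from 3762, 3974 and 3944 to 7710, 7017 and 8895 CPM, 2.02-fold (1.02, SE 0.12, adjusted p = 4.0e-06). Every Pdx1 siRNA library was above every NT library, and the spread was wider after Pdx1 siRNA.

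Pcsk1 had 346, 378 and 350 CPM in NT total RNA and 489, 539 and 593 CPM after Pdx1 siRNA, a 1.51-fold rise (log2 fold change 0.59 with SE 0.09, edgeR adjusted p = 6.8e-05). The IP libraries held 203, 207 and 193 CPM with NT and 281, 270 and 326 CPM with Pdx1 siRNA, 1.45-fold (0.54, SE 0.09, adjusted p = 0.000137). These are the smallest fold changes of the 6 in both fractions.

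Of the binding proteins, the chaperone gene Scg5 rose 2.17-fold in total RNA. Its libraries stood at 1171, 1145 and 1072 CPM in NT total and at 2332, 2336 and 2691 CPM in Pdx1 siRNA total RNA (log2 fold change 1.12 with SE 0.10, edgeR adjusted p = 3.2e-07). In IP RNA they went from 1716, 1714 and 1743 to 3459, 3355 and 4224 CPM, 2.13-fold (1.09, SE 0.10, adjusted p = 3.4e-07). The NT IP libraries of Scg5 lay close together, at 1724 ± 16.5 CPM (SD, n = 3), and no library of one siRNA overlapped those of the other.

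The inhibitor gene Pcsk1n went from 599, 846 and 732 CPM in NT total to 1262, 1415 and 1324 CPM in Pdx1 siRNA total RNA, 1.84-fold (log2 fold change 0.88 with SE 0.18, edgeR adjusted p = 0.000938). Its IP libraries went from 657, 892 and 708 to 2590, 1979 and 3646 CPM, 3.64-fold (1.86, SE 0.19, adjusted p = 7.4e-07). That is the largest fold change of any member in either fraction, and its value in IP RNA was 1.60 without Pdx1 siRNA IP replicate 3, the library with the highest level.

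The exopeptidase gene Cpe stood at 8509, 9328 and 8501 CPM in NT total and 13764, 14867 and 16867 CPM in Pdx1 siRNA total RNA, 1.73-fold (log2 fold change 0.79 with SE 0.12, edgeR adjusted p = 4.7e-05). Among IP libraries it went from 12368, 13021 and 11278 to 19189, 18955 and 22849 CPM, 1.66-fold (0.73, SE 0.12, adjusted p = 7.4e-05). The amidating enzyme gene Pam rose 2.17-fold in total RNA, from 1118, 1280 and 1162 to 2204, 2558 and 2983 CPM (1.12, SE 0.12, adjusted p = 1.8e-06). Pam rose 2.01-fold in IP RNA, from 1266, 1418 and 1257 to 2406, 2492 and 3020 CPM (1.01, SE 0.12, adjusted p = 4.5e-06). Neither gene's libraries overlapped between the siRNAs.

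Libraries moved together across the members. Pdx1 siRNA IP replicate 3 was the highest of its group for 6 of 6 members, and Pdx1 siRNA total replicate 3 for 5 of 6, while Pdx1 siRNA total replicate 1 was the lowest for 6 of 6. NT total replicate 2 and NT IP replicate 2 were each the highest for 5 of 6. The genes Furin and Ctsb, not members, likewise had Pdx1 siRNA replicate 3 highest in both fractions and total replicate 1 lowest. Rab3d, also not a member, did not. The share of all genes with these extremes was not counted, so they cannot be read as particular to the members. TMM factors, which scale the libraries, were 1.22 to 1.231 (NT total), 0.95 to 1.066 (Pdx1 siRNA total), 0.984 to 1.011 (NT IP) and 0.752 to 0.866 (Pdx1 siRNA IP). The rise of each member passed the test under each alternative run, among them the IP split as a term (96 fits of a member in total RNA and 102 in IP RNA). With that term the IP comparison of the siRNAs rests on NT IP replicate 3 alone. Some of the alternatives could hardly differ from the main fit for the members. All genes passed the expression filter, each member had a single counted transcript to sum, and the IP split divides no total RNA libraries.

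**Figure D2:**
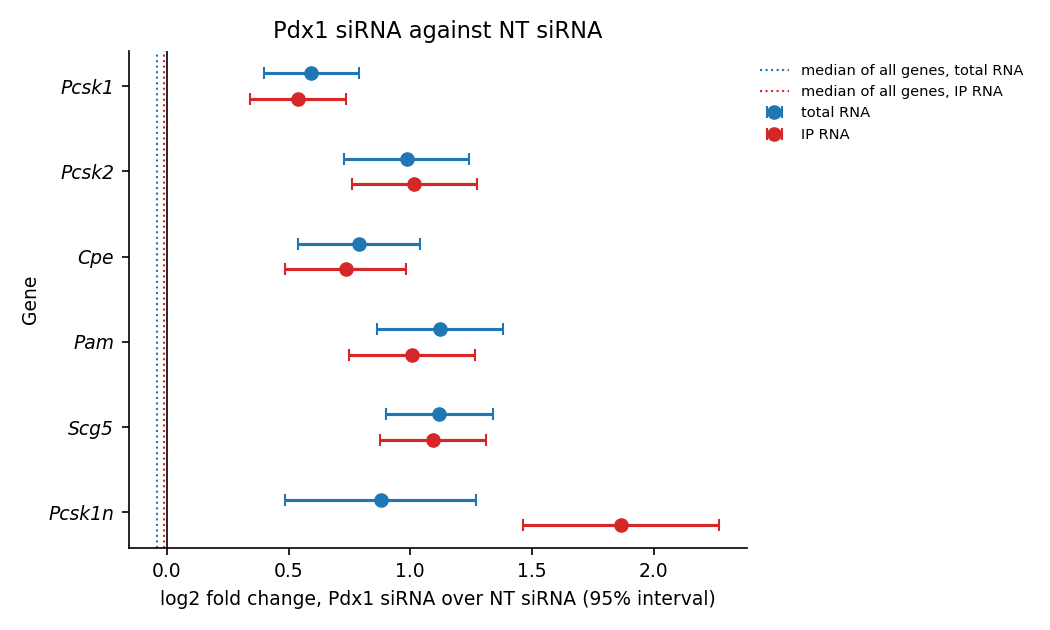
Log2 fold change of Pdx1 over NT siRNA (x axis) for each gene in total RNA and in IP RNA, with 95% intervals from the standard error; dotted lines give the median of all genes. Every interval lies above 0, from 0.54 for Pcsk1 to 1.86 for Pcsk1n in IP RNA, and the value for Pcsk1n is 0.88 in total RNA.

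Markers of other islet cells moved with these genes. Of 12 such markers 6 were measured, and all 6 rose in both fractions (median log2 fold change 1.71 in total and 1.77 in IP RNA). Their summed level was 10766 to 13035 CPM in NT total and 31497 to 35175 CPM in Pdx1 siRNA total RNA, and 19709 to 23901 against 61430 to 77530 CPM in IP RNA. Most of that sum was Ttr, the transthyretin gene, at 10945 ± 1150 CPM in NT total and 29482 ± 1644 CPM in Pdx1 siRNA total RNA (SD, n = 3), and at 20219 ± 2097 and 64854 ± 8156 CPM in IP RNA. Gcg, the glucagon gene, rose 3.98-fold in total RNA, from 763 ± 19.1 to 3037 ± 219 CPM. Ppy, the pancreatic polypeptide gene, and Irx2 had a group mean of 7.07 CPM or less, and the other 6 markers of the list were not analysed here. The summed beta-cell markers stood at 104789 to 115936 CPM in NT total and 94556 to 100920 CPM in Pdx1 siRNA total RNA, with 2 of 10 higher and 4 lower, where 23.8% and 29.2% of all genes were. In IP RNA 1 was higher and 5 lower, where 29.2% and 30.4% of all genes were, and Pdx1, the target of the siRNA, is 1 of those lower in both fractions. The sums in IP RNA stood at 205415 to 240051 CPM with NT and 186047 to 229829 CPM with Pdx1 siRNA. Of 13 exocrine and duct markers 3 were measured, summing to 66.8 to 162 CPM over all libraries, and 2 of them rose in both fractions. The counts of called markers varied over the alternatives. In total RNA 1 to 2 beta-cell markers were higher and 3 to 6 lower. In IP RNA 0 to 1 were higher and 3 to 5 lower. Of the other islet markers 5 to 6 were higher in IP RNA, and of the exocrine and duct markers 1 to 2. The part of other cell states in the rise of the processing genes was not tested.

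Ratios of counts inside a library do not depend on the scaling between libraries, so they were used to compare partners. With 3 libraries against 3 the smallest p of an exact two-sided permutation test is 0.1 (adjusted p = 0.112 over 28 tests), so none could pass 0.05. There were fewer Pcsk1 counts per Pcsk2 count after Pdx1 siRNA. The ratio of Pcsk1 to Pcsk2 counts was 0.0751, 0.0739 and 0.0767 in NT total and 0.0612, 0.0557 and 0.0559 in Pdx1 siRNA total RNA. Ribosome-bound RNA gave 0.0539, 0.0521 and 0.049 with NT and 0.0364, 0.0384 and 0.0366 with Pdx1 siRNA. The log2 ratio differed by −0.39 in total RNA and by −0.47 in IP RNA, with no overlap in either (exact permutation p = 0.1 each).

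For the chaperone and its convertase the libraries of both siRNAs overlapped. The log2 ratio of Scg5 to Pcsk2 was −2.08 ± 0.09 (SD, n = 3) in NT total and −1.94 ± 0.14 in Pdx1 siRNA total RNA, with overlapping libraries (difference 0.14, exact permutation p = 0.3). The IP values were −1.17 ± 0.04 and −1.10 ± 0.05, also overlapping (difference 0.08, exact permutation p = 0.2). A design of this size cannot show that the ratio was the same.

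For the inhibitor and its convertase the libraries were apart in IP RNA and overlapped in total RNA. There were 3.24, 4.31 and 3.66 Pcsk1n counts per Pcsk1 count in NT IP and 9.23, 7.34 and 11.2 in Pdx1 siRNA IP RNA, a log2 difference of 1.30 with no overlap (exact permutation p = 0.1). In total RNA the ratios were 1.73, 2.24 and 2.09 with NT and 2.58, 2.63 and 2.23 with Pdx1 siRNA, a difference of 0.30 with overlapping libraries (exact permutation p = 0.2). The log2 ratio of Cpe to Pam differed between the siRNAs by −0.33 in total and −0.27 in IP RNA, without overlap (exact permutation p = 0.1 each).

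**Figure D3:**
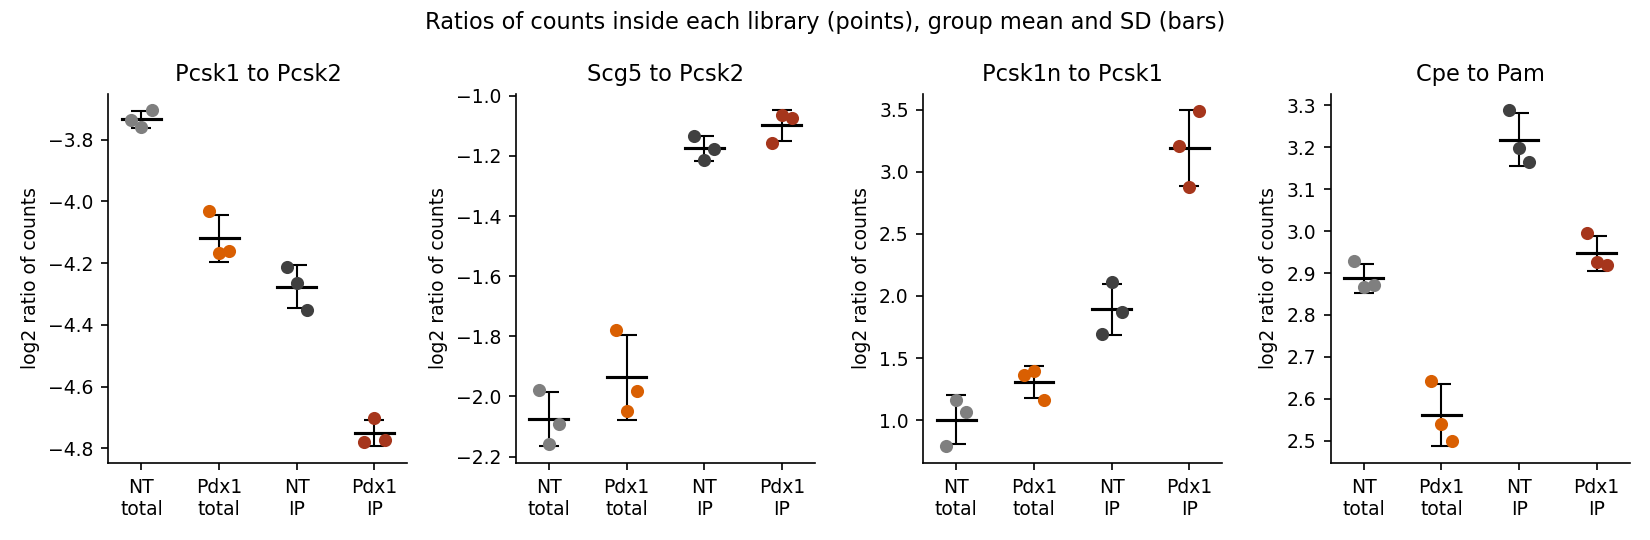
Log2 ratio of counts between pairs of members inside each library (y axis, ranges differ between panels) by group; points are libraries, bars the mean and SD of 3. Pcsk1 to Pcsk2 lies lower with Pdx1 siRNA in both fractions, at differences of −0.39 and −0.47, Scg5 to Pcsk2 overlaps between siRNAs, and Pcsk1n to Pcsk1 reaches 3.19 on average in Pdx1 siRNA IP RNA.

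Against Ins2, which encodes the insulin precursor with the highest level here, Pcsk1, Pcsk2 and Cpe each had more counts after Pdx1 siRNA. There were 7.11 Ins2 counts for each Cpe count in NT total and 3.70 in Pdx1 siRNA total RNA (from the mean log2 ratios), and 10.7 and 6.58 in IP RNA. For Pcsk2 the numbers of Ins2 counts per count were 13.1 and 5.97 in total RNA and 33.4 and 17.0 in IP RNA. For Pcsk1 they were 174 and 104 in total RNA and 647 and 458 in IP RNA. The libraries of both siRNAs did not overlap for any of these 3 ratios in either fraction (exact permutation p = 0.1 each). Counts per gene are not per length here, so only their change between groups can be read.

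The comparison of IP with total RNA asked how much of each transcript was recovered with ribosomes relative to its total level. The members split. With NT siRNA, Scg5 (log2 fold change 0.61 with SE 0.10, edgeR adjusted p = 7.8e-05) and Cpe (0.48, SE 0.12, adjusted p = 0.00193) were higher in IP than in total RNA. Pcsk1 was lower by 1.78-fold (−0.83, SE 0.09, adjusted p = 1.4e-06), and Pcsk2 was at −0.29 (SE 0.12, adjusted p = 0.041). Pam (0.15, adjusted p = 0.288) and Pcsk1n (0.05, adjusted p = 0.807) did not pass the test, and their libraries overlapped. So 2 of 6 members were higher and 2 lower, where 33.8% and 35.9% of all genes were, and these are shares near the background. The same 4 had no overlap between fractions, where 37.3% of all genes were higher and 40.2% lower without overlap.

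The Pcsk2 call with NT siRNA did not hold when any single library of the comparison was left out (−0.30 to −0.19, adjusted p = 0.0735 to 0.223). It was also lost with RLE factors (−0.25, adjusted p = 0.0752) and with the IP split as a term (−0.30, adjusted p = 0.0724). Without NT IP replicates 1 and 2, so that replicate 3 stood alone, Cpe was at 0.39 (adjusted p = 0.0857) and Pcsk2 at −0.24 (adjusted p = 0.298).

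With Pdx1 siRNA, Pcsk1 was again lower in IP RNA (log2 fold change −0.89 with SE 0.09, edgeR adjusted p = 4.3e-07), and Scg5 (0.58, SE 0.10, adjusted p = 9.2e-05) and Cpe (0.42, SE 0.12, adjusted p = 0.00406) were higher. Pcsk1n was now 2.05-fold higher in IP than in total RNA (1.04, SE 0.18, adjusted p = 0.000109), with 1979 CPM or more in the IP libraries and 1415 CPM or less in the total libraries. Pcsk2 (−0.26, adjusted p = 0.0606) and Pam (0.03, adjusted p = 0.819) did not pass, although Pcsk2 did without Pdx1 siRNA total replicate 1 (−0.37, adjusted p = 0.00925) or Pdx1 siRNA IP replicate 3 (−0.35, adjusted p = 0.021). Thus 3 members were higher and 1 lower, where 36.3% and 38.7% of all genes were. These 4 had no overlap between fractions, where 35.7% of all genes were higher and 37.9% lower without overlap. The insulin gene Ins2 gives a scale for these values. Its log2 fold change of IP over total RNA was 1.07 with NT and 1.26 with Pdx1 siRNA. Ins2 held 62437 ± 2813 CPM in NT total and 130678 ± 16614 CPM in NT IP RNA (SD, n = 3). With Pdx1 siRNA the levels were 55926 ± 1078 CPM in total and 133983 ± 16696 CPM in IP RNA.

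**Figure D4:**
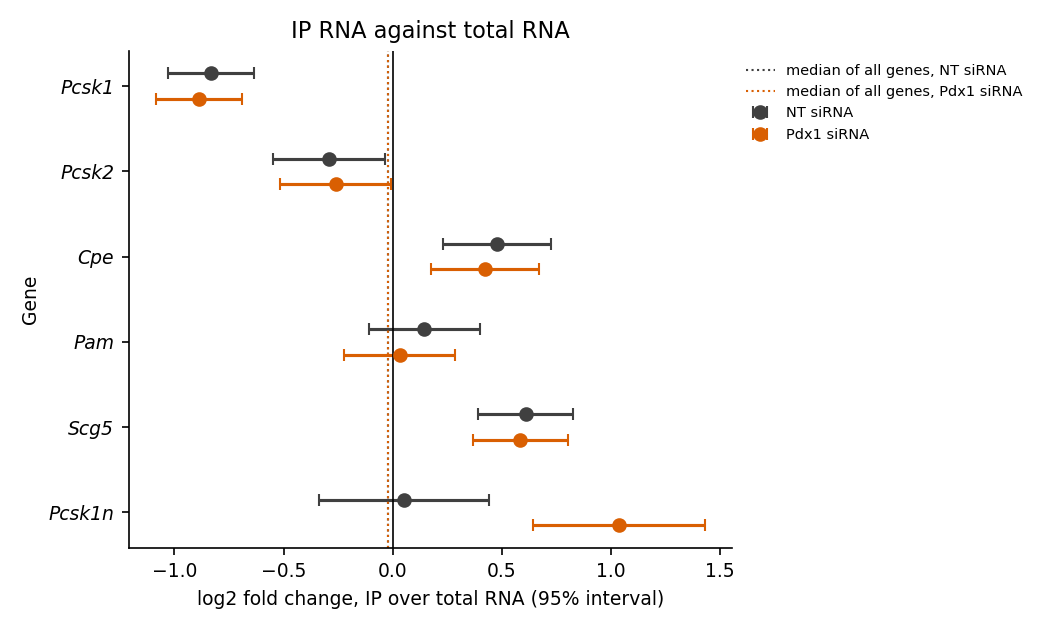
Log2 fold change of IP over total RNA (x axis) for each gene under NT and under Pdx1 siRNA, with 95% intervals; dotted lines give the median of all genes. Pcsk1 lies below 0 and Scg5 and Cpe above 0 under both siRNAs, and Pcsk1n lies at 0.05 under NT and 1.04 under Pdx1 siRNA.

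The difference between the siRNA effects in IP and in total RNA was tested by the interaction term, which called 0.229% of all genes. None of the 6 members passed it at an adjusted p under 0.05 (edgeR). By p, Pcsk1n stood highest of the members, at rank 264 of the 12643 genes. DESeq2 called none of the 6 either (Pcsk1n at 0.97, adjusted p = 0.0802). For Pcsk1n the difference was 0.99 (SE 0.26, unadjusted p = 0.00171, adjusted p = 0.082), that is, a 1.98-fold larger rise in IP RNA. Without Pdx1 siRNA IP replicate 2 it was 1.17 (adjusted p = 0.0443), and without Pdx1 siRNA IP replicate 3 it was 0.70 (adjusted p = 0.175). Over the alternatives run its adjusted p ranged from 0.0443 to 0.476, the latter without NT IP replicates 1 and 2. For the other members the difference lay between −0.11 (Pam, 95% interval −0.47 to 0.25) and 0.03 (Pcsk2, −0.33 to 0.39). On simulated counts for the 12643 genes, with genes changed at random, the test recovered 66% of interactions of 1.5-fold and 90% of 2-fold. These shares run over genes of differing spread and do not give the power for a given member. The SE of Pcsk1n, 0.26, was larger than that of the other members (0.13 to 0.17), and Pcsk1n did not pass at 1.98-fold.

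The order of the 4 groups differed between the members. From high to low, Cpe and Scg5 had Pdx1 siRNA IP, Pdx1 siRNA total, NT IP and NT total, and all neighbours were apart. Pam and Pcsk1n followed the same order, but the NT groups overlapped for both and the Pdx1 siRNA groups for Pam. Pcsk1 had the order Pdx1 siRNA total, NT total, Pdx1 siRNA IP and NT IP, all apart. Pcsk2 had Pdx1 siRNA total, Pdx1 siRNA IP, NT total and NT IP, with an overlap only between the Pdx1 siRNA groups. How many of all genes had these orders, or all neighbours apart, was not counted, so neither can be called unusual. On unscaled library sizes Pam and Pcsk1n had lower means in IP than in total RNA with NT siRNA, and Pam with Pdx1 siRNA as well, so their order depends on the scaling. For Cpe the IP and total libraries overlapped on unscaled sizes under both siRNAs. The Pcsk2 libraries of Pdx1 siRNA IP (6074 to 6690 CPM) then overlapped those of NT total (5621 to 6237 CPM). Over the 12 libraries the log2 levels of Cpe and Scg5 had the highest correlation of any pair (r = 0.989) and those of Pcsk1 and Cpe the lowest (r = 0.08). These are descriptions over libraries that share 4 groups and their scaling.

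Among 9926 named genes whose mean reached 5 CPM, those whose log2 level followed a member most closely over the 12 libraries were found by Pearson correlation. For Pcsk2 they were Adcy6 (0.998), Aldh4a1 (0.997) and Ptprn2 (0.997), which encodes the granule protein phogrin. For Pcsk1 they were Fat1 and Disp2 (0.996 each) and Insrr (0.996), which encodes a receptor related to the insulin receptor. Cpe was followed by the cathepsin gene Ctsl (0.994), Ikbip (0.993) and Rcn2 (0.989), and Scg5 by Tmem176b (0.997), Ikbip (0.996) and Erlec1 (0.995). Pam was followed by Cpq (0.995), Sdc2 (0.994) and Slc24a3 (0.992). For Pcsk1n the closest genes were Zfp579 (0.985), Dyrk1b (0.966) and Ctu1 (0.965). Ikbip appeared for both Cpe and Scg5.

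Of 7 other convertase genes looked for, 5 were measured, and in total RNA 1 of these passed the test: Furin, which encodes the trans-Golgi convertase of the constitutive pathway. Furin rose 1.48-fold, from 116, 123 and 120 to 151, 181 and 197 CPM (log2 fold change 0.56 with SE 0.09, edgeR adjusted p = 0.000124). The rise in IP RNA was 1.71-fold (0.77, SE 0.09, adjusted p = 4.7e-06), and Pcsk4 passed too (0.35, adjusted p = 0.0272), but its call was often lost. It was at 0.14 with the IP split as a term (adjusted p = 0.523) and without NT IP replicates 1 and 2 (adjusted p = 0.534), at 0.35 with DESeq2 (adjusted p = 0.0562) and at 0.34 with only the libraries compared (adjusted p = 0.0574). It also missed the threshold without NT IP replicate 1 or 2 or Pdx1 siRNA IP replicate 1 or 3 (adjusted p = 0.0637 to 0.135). Pcsk7 was at 0.02 in total and 0.06 in IP RNA, and the sterol-pathway protease gene Mbtps1 at 0.13 and 0.20, and neither passed the test. The list's median was 0.13 in total and 0.20 in IP RNA. Over all genes 23.8% were higher in total and 29.2% in IP RNA. The counts of 1 and 2 higher ranged from 1 to 2 and from 1 to 3 over the alternatives.

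Carboxypeptidases related to Cpe rose in 4 of 5 measured cases in both fractions, out of 7 looked for, with medians of 0.50 and 0.57, where 23.8% of all genes rose in total and 29.2% in IP RNA. Cpn1, encoding the catalytic subunit of carboxypeptidase N, rose 2.71-fold in total RNA (from 243 ± 12.8 to 658 ± 113 CPM, adjusted p = 8.6e-08, edgeR). Cpz rose 16.0-fold in total and 14.9-fold in IP RNA, from a low 0.894 ± 0.193 CPM in NT total RNA. Cpm (0.39 and 0.34 on the log2 scale) and Aebp1 (0.50 and 0.57) rose by less. Both lost their calls in IP RNA, which left 2 of the list higher, with the IP split as a term (adjusted p = 0.05 for Cpm and 0.0502 for Aebp1) and without NT IP replicates 1 and 2 (0.0641 and 0.0552). The one gene of the list that did not pass, Cpd, encoding the trans-Golgi carboxypeptidase D, was at 0.07 in total and −0.19 in IP RNA (adjusted p = 0.661 and 0.178).

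Of 9 measured genes for other peptide-modifying or degrading enzymes, out of 10, 5 rose and 1 fell in total RNA (median 0.52), and 6 rose and 1 fell in IP RNA (median 0.70). Over all genes 23.8% rose and 29.2% fell in total RNA, and 29.2% rose and 30.4% fell in IP RNA. Over the alternatives 5 to 6 of the list were higher in either fraction. The lysosomal protease genes Ctsl (0.89, SE 0.10) and Ctsb (0.88, SE 0.11) rose in total RNA, as did Qpctl (0.70), a Golgi glutaminyl cyclase gene, and the tyrosine sulfation gene Tpst2 (0.63). In IP RNA Tpst2 (0.92), Ctsb (0.90), Qpctl (0.74) and the endothelin-converting enzyme gene Ece2 (0.70) had the smallest p. Ide, encoding the insulin-degrading enzyme, was the gene that fell, by 0.20 in total RNA (adjusted p = 0.0209) and by 0.28 in IP RNA. Its call in total RNA was lost without NT total replicate 2 (−0.12, adjusted p = 0.221), and also without NT total replicate 1 or 3 or Pdx1 siRNA total replicate 3 (adjusted p = 0.0595 to 0.122). It was lost too with upper-quartile factors (adjusted p = 0.0837), with Ins1 and Ins2 left out (0.0504) and with only the libraries compared (0.0785).

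The precursors that these enzymes process moved in different directions. Of 15 measured prohormone and granin genes, out of 20, 10 rose and 2 fell in both fractions, with medians of 0.67 in total and 0.75 in IP RNA. Over all genes 23.8% rose and 29.2% fell in total RNA, and 29.2% rose and 30.4% fell in IP RNA. Over the alternatives 10 of the list were higher and 1 to 2 lower in either fraction. The genes of the list with the smallest p in total RNA were Gcg (1.99), Npy (−1.94), Chgb (1.90), which encodes chromogranin B, and Nucb2 (0.96), which encodes the precursor of nesfatin. Gal, encoding galanin, stood at 1.76 in IP RNA. Ins1, the other fall, was at −0.39 in total (adjusted p = 0.00901, edgeR) and −0.28 in IP RNA (adjusted p = 0.0415). It was at −0.32 without NT total replicate 1 (adjusted p = 0.0618), and its call in IP RNA ended on leaving out any 1 of the NT IP libraries, Pdx1 siRNA IP replicate 1, or Pdx1 siRNA IP replicate 2 (−0.31 to −0.19, adjusted p = 0.0732 to 0.155). That call was also lost with only the libraries compared (−0.29, adjusted p = 0.0993) and with the IP split as a term (−0.34, adjusted p = 0.126). Without NT IP replicates 1 and 2 Ins1 was at −0.34 in IP RNA. Iapp and Ins2 did not pass the test in either fraction.

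**Figure D5:**
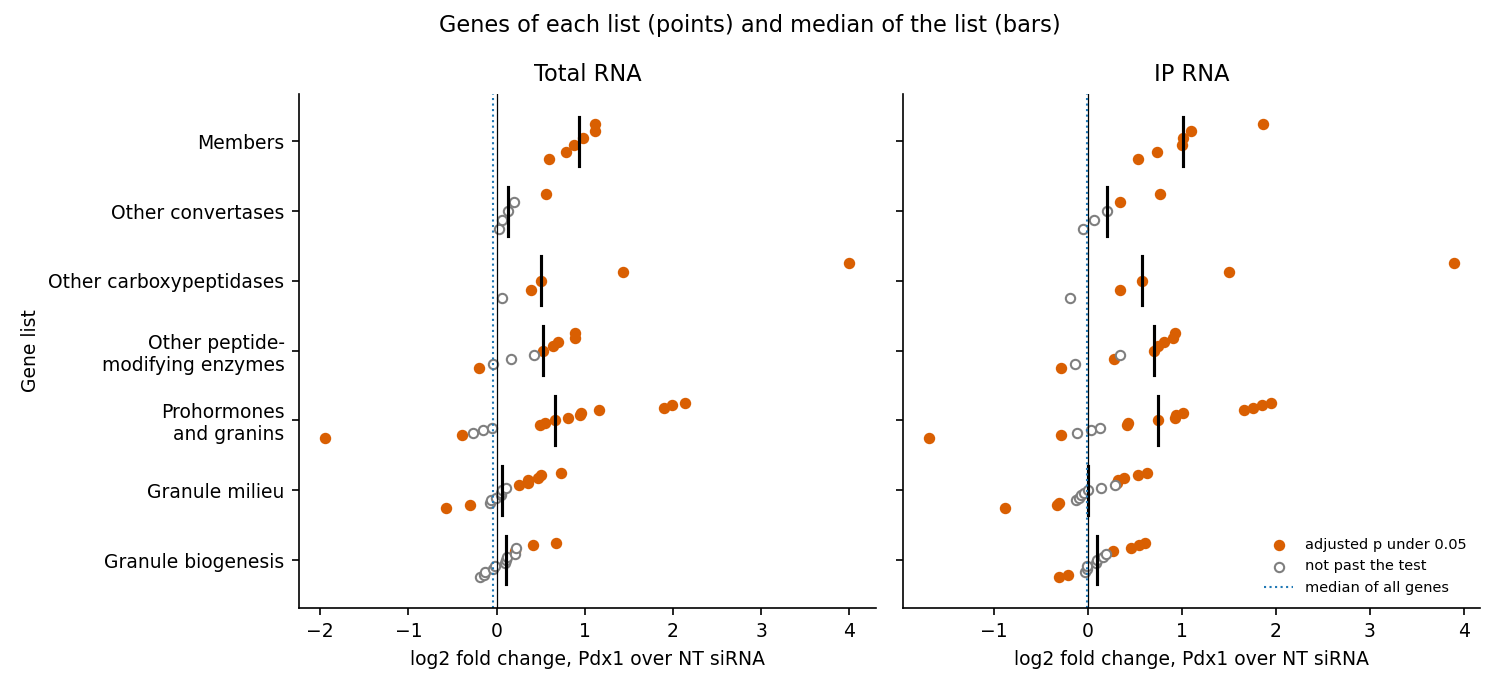
Log2 fold change of Pdx1 over NT siRNA (x axis) for each measured gene of 7 gene lists in total RNA (left) and IP RNA (right); filled points passed the test, open points did not, and black bars are list medians. The 6 members lie between 0.54 and 1.86, above the dotted median of all genes, while the other convertases centre on 0.13 in total RNA.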

How the data were processed

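The authors deposited raw whole-number read counts per RefSeq transcript, 1 table for each of the 12 libraries. The submitters' processing notes list TopHat2, featureCounts and mm10 but no version, and strand and multi-mapping settings are not stated. All tables hold 17133 transcripts, and the lowest sum over the libraries is 141 counts, so rarer transcripts are not analysed here. RefSeq names (GRCm38.p6) were found for all but 295 transcripts, which held 0.577% to 0.834% of counts and were left out. A gene with several transcripts was counted by the most abundant one. Reads are not unique molecules, so counting error is a lower limit.

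A single edgeR 4.0.16 quasi-likelihood model (R 4.3.3) with a mean for each of the 4 groups and TMM factors was fitted to 12643 genes, all of which passed edgeR's expression filter. Benjamini-Hochberg adjustment ran over all of them, with a threshold of 0.05. Lengths came from GENCODE M21, and copies from minimap2 2.31 alignments of at least 100 bases. The script was tested on simulated data with 50 genes changed at each size. There 86% of 1.5-fold changes were recovered in total RNA and 56% in IP RNA. Alternatives were RLE and upper-quartile factors, DESeq2 1.42.0, other filters, Ins1 and Ins2 left out, summed transcripts, a replicate block, the IP split as a term, and leaving out libraries.

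The genes named were the 6 members, Pdx1, at most 4 of a list by p among its called genes in a contrast, and the 3 genes nearest to each member. Pcsk7, Mbtps1, Cpd, Ide, Ins1, Ins2, Iapp and Irx2 fall outside that rule in the siRNA comparisons and were chosen after their values were seen. Members, lists and the IP split were chosen with earlier results of these data known.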

Additional observations from a re-analysis of the deposited data

How the results depend on the processing

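The rise of each member after Pdx1 siRNA kept its direction and its call in all 96 fits run in total RNA and all 102 in IP RNA. Not all of these fits could differ from the main one. Every gene had passed the filter, summing transcripts left the counts of the members unchanged, and the IP split divides only IP libraries. Calls between IP and total RNA depended more on the setting, and the cause was not tested. With NT siRNA, Pcsk2 lost its call with RLE factors (−0.253), Ins1 and Ins2 left out (−0.2554), the IP split as a term (−0.3004) and without NT IP replicates 1 and 2 (−0.2447), which left 1 member lower in each case. Without those 2 libraries Cpe also lost its call (0.389), leaving 1 member higher, and Pcsk1n was at −0.0076. With Pdx1 siRNA, Pcsk2 passed with upper-quartile factors (−0.305), DESeq2 (−0.2405) and the replicate block (−0.2557), for 2 members lower, and Pam was at −0.0134 with upper-quartile factors. Leaving out 1 library at a time gave −0.3004 to −0.1932 for Pcsk2 with NT siRNA (1 member lower in each fit) and −0.3655 to −0.1655 with Pdx1 siRNA (1 to 2 members lower). It gave −0.0547 to 0.2208 for Pcsk1n with NT siRNA and −0.0699 to 0.1486 for Pam with Pdx1 siRNA.

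The difference between the siRNA effects of the fractions changed sign where it was near 0. Pcsk2 was at −0.0061 with upper-quartile factors and −0.0027 with the insulin genes left out, Pcsk1 at 0.0025 and Cpe at 0.0615 with the IP split, and Cpe at 0.0566 without NT IP replicates 1 and 2. Over single libraries left out it ran from −0.1671 to 0.0183 for Pcsk1, −0.0928 to 0.1255 for Pcsk2, −0.1735 to 0.0288 for Cpe, −0.2495 to 0.0024 for Pam, −0.164 to 0.0465 for Scg5 and 0.6986 to 1.1714 for Pcsk1n (0 to 1 member called). For Pdx1 it ran from −0.197 to 0.0154. The interaction called 22 genes higher and 7 lower, but 142 and 185 with DESeq2, 3 and 2 with the IP split or without NT IP replicates 1 and 2, and 2 to 243 and 2 to 328 with 1 library left out, the highest without NT IP replicate 3. The number lower was 20 with RLE factors, 28 with upper-quartile factors and 30 without the insulin genes. Without NT IP replicates 1 and 2 the siRNA effect in IP RNA called 2443 genes higher and 2457 lower, against 3694 and 3848, and with the IP split IP against total RNA under Pdx1 siRNA called 3198 lower, against 4897.

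Whether replicate numbers pair the libraries is not established: 9 of 18 pairs with the same number deviated together at r over 0.1 (−0.105 to 0.514), and 23 of 36 comparisons were best with the own number, which is a hint from the data and not from the design. With the replicate block the interaction called 203 genes higher and 170 lower, with 1 member, Pcsk1n (0.976, adjusted p = 0.0497, edgeR).

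On unscaled library sizes each member still rose in both fractions without overlap, each by less than after scaling. Pcsk1 went from 438 to 544 CPM in total RNA (1.24-fold) and from 201 to 235 in IP RNA (1.17-fold). Means in NT total RNA were 5830 for Pcsk2, 10745 for Cpe, 1452 for Pam, 1382 for Scg5 and 888 for Pcsk1n. In Pdx1 siRNA IP RNA they were 6337 for Pcsk2, 16379 for Cpe, 2126 for Pam, 2961 for Scg5 and 2185 for Pcsk1n. In NT IP RNA Pam stood at 1315 and Pcsk1n at 753, below their NT total means with overlapping libraries. Pam was also lower in Pdx1 siRNA IP than in Pdx1 siRNA total RNA (2596), with no overlap. The higher IP means of Cpe came with overlapping libraries under both siRNAs, at 1.14-fold with NT and 1.07-fold with Pdx1 siRNA.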

Other observations

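The convertases need an acidic, calcium-rich granule and PAM needs copper, and genes for this milieu changed in both directions after Pdx1 siRNA. Of 15 genes 6 rose and 2 fell in total RNA (median log2 fold change 0.07, against −0.04 over all genes), and 5 rose and 3 fell in IP RNA (median 0.00). Over all genes 23.8% rose and 29.2% fell in total RNA and 29.2% rose and 30.4% fell in IP RNA. Over the alternatives 3 to 6 were higher in total RNA and 2 to 6 in IP RNA. Atp6ap1, an accessory subunit gene of the granule proton pump, rose 1.66-fold in total RNA (log2 fold change 0.73, SE 0.11, adjusted p = 3.9e-05, edgeR) and 1.54-fold in IP RNA. The pump subunit gene Atp6v0a2 rose by 0.50 and 0.53 on the log2 scale. Atp2a2, which encodes a calcium pump of the endoplasmic reticulum, fell by 0.58 in total RNA and by 0.88 in IP RNA. Atp2a3, another calcium pump gene, went the other way, by 0.47 in total RNA (adjusted p = 0.00386, edgeR) and 0.38 in IP RNA (adjusted p = 0.0118). Its call in IP RNA was lost without NT IP replicate 1 (0.34, adjusted p = 0.0515) or Pdx1 siRNA IP replicate 3 (0.28, adjusted p = 0.064). It was also lost with the IP split as a term (0.39). Slc31a1, encoding the copper importer CTR1, fell by 0.31 in total RNA (adjusted p = 0.00925) and by 0.33 in IP RNA, and was at −0.22 without NT total replicate 3 (adjusted p = 0.0927).

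Of 13 measured genes for granule biogenesis and sorting, out of 14, 3 rose and 0 fell in total RNA (median 0.11), and 4 rose and 2 fell in IP RNA (median 0.09), against the same shares of all genes. Over the alternatives 3 to 5 were higher in either fraction. The sorting receptor gene Sort1 rose 1.60-fold and the granule GTPase gene Rab3d 1.33-fold in total RNA (adjusted p = 8.3e-05 and 0.000323, edgeR). Pick1 stood at 0.21 in total and 0.45 in IP RNA. Vps50, encoding a subunit of an endosomal tethering complex, was at −0.31 in IP RNA (adjusted p = 0.000553) and at −0.02 in total RNA (adjusted p = 0.831). The difference between the fractions was not past the test for any gene of either list.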
